A study of Mus musculus with 6 samples.

Results

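A group of 7 genes on mouse autosomes that arose as copies of X-linked genes was followed from pachytene/diplotene (P/D) spermatocytes to round spermatids (RS). The members, Pgk2, Pdha2, Rpl10l, Rpl39l, Cetn1, Rbmxl2 and Utp14b, were chosen by name, and a contig, which is 1 annotated transcript to which reads were aligned, belonged to them where its gene symbol was 1 of the 7, ignoring case. They comprised 10 of the 11517 annotated contigs and 7 of the 7098 gene symbols. Native poly(A) RNA had been sequenced through nanopores, so that every read is 1 RNA molecule with its tail, and the 6 samples were 3 of P/D spermatocytes and 3 of RS, sorted by DNA stain from adult wild-type males of the C57BL/6J (B6) strain. No genotype or treatment differed between the groups, and each sample pooled mRNA from 3 mice. All P/D samples carried barcodes of 1 multiplexed library and all RS samples those of a second, and a cell type effect and a library effect cannot be told apart. By the study's microscopy of the sorted cells, the P/D gate held a large share of other cells and the RS gate a smaller one. Both cell types came from the same mice.

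Retrogenes arise when the mRNA of a parent gene is reverse transcribed and inserted elsewhere in the genome, usually without introns. In male meiosis the X chromosome is silenced, and autosomal copies of X-linked housekeeping genes are known to be transcribed at that time in place of their parents. The poly(A) tail added to the 3′ end of an mRNA is bound by poly(A)-binding proteins and bears on how long the mRNA lasts and how well it is translated, and germ cells are known for storing mRNAs that are translated days after their transcription.

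All 7 parents lie on the X chromosome, and the copies lie on chromosomes 17 (Pgk2), 3 (Pdha2), 12 (Rpl10l), 16 (Rpl39l), 18 (Cetn1), 7 (Rbmxl2) and 1 (Utp14b). In the GENCODE annotation of the GRCm38 genome the coding sequence of each of the 10 contigs lay in 1 exon. Pgk2, Pdha2, Rpl10l, Rbmxl2 and the Cetn1 contig ENSMUST00000234003 had 1 exon in all, the other 2 Cetn1 contigs had 2, and the Rpl39l and Utp14b contigs had 3, the others being untranslated. The coding sequence was closest to that of the parent for Rpl39l, with 85.0% of aligned positions identical, and for Rpl10l, with 84.7%. It was 79.3% identical for Pgk2 and Pgk1, 78.6% for Cetn1 and Cetn2, 75.4% for Pdha2 and Pdha1, 73.3% for Utp14b and Utp14a, and 66.0% for Rbmxl2 and Rbmx. No read of a member contig was listed on another contig as well. The Cetn1 contigs ENSMUST00000062769 and ENSMUST00000234590 have the same annotated sequence, so the split of reads between them carries no information, and Cetn1 is given first with its contigs pooled.

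The last 30 bases of the annotated transcripts are shown because the tail is added there, after cleavage directed by a hexamer that is most often AATAAA or its variant ATTAAA. The capitals mark either hexamer, searched on the transcript's strand only, and the sequence runs 5′ to 3′ along the transcript, from GENCODE on GRCm38.
Pgk2, chr17:40207015-40207044, minus strand: ctATTAAAgaagtgagctaagtaagttgaa
Rpl10l, chr12:66283379-66283408, minus strand: agagaATTAAAcatgaaaattacatctcaa
Utp14b, chr1:78671483-78671512, plus strand: cttAATAAAaattgtaaacttgctttctaa
Pdha2, chr3:141210004-141210033, minus strand: ttgatttttcctcctaagtaggattcaggc
Rbmxl2, chr7:107210887-107210916, plus strand: tcaacaagctcgtgttaaaagtatgacttg
Rpl39l ENSMUST00000044103, chr16:10174882-10174911, plus strand: attgaaattagattatttcttttttcaatc
Rpl39l ENSMUST00000121292, chr16:10174601-10174630, plus strand: aatatgtgaaaccttttgtttcgaaaaaaa

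Pgk2 and Rpl10l held ATTAAA, 22 and 19 bases before the annotated end, and Utp14b held AATAAA 21 bases before it. The 3 Cetn1 contigs held AATAAA 7 or 16 bases before their ends. The ends annotated for Pdha2, Rbmxl2 and both Rpl39l contigs held neither hexamer, although the Rpl39l contig ENSMUST00000121292 held AATAAA within its last 50 bases. Among 6901 tail-tested contigs with a sequence, 55.0% held AATAAA, 14.6% held ATTAAA and 68.0% held either in the last 30 bases, and some held both. These matches describe the annotation, since the deposited tables do not give the base at which a read ends.

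The samples held between 244004 and 474688 reads, and the median tail over all reads of a sample lay between 91.2 and 94.1 nt in P/D samples and between 156 and 160 nt in RS. The labelled cell types were checked against marker genes. Piwil1, a PIWI protein of pachytene spermatocytes, had 113 to 127 reads in a P/D sample and 8 to 13 in an RS sample. Spag6 and Nme8, of the same list, went the other way. Spag6 had 8 to 15 reads in P/D samples and 94 to 157 in RS samples, and Nme8 13 to 28 and 51 to 112. Acrv1, an acrosomal protein, had 4 to 12 reads in a P/D sample and 153 to 205 in an RS sample. Of 10 P/D marker genes, whose reads made up 0.554% to 0.582% of P/D and 0.42% to 0.441% of RS reads, 18 contigs were tested, of which 8 were lower and 6 higher in RS. The 10 RS markers made up 0.0424% to 0.0572% of P/D and 0.265% to 0.288% of RS reads, and 10 of 11 contigs tested were higher in RS. The 10 genes listed for elongating spermatids, the stage after RS, made up 0.401% to 0.492% of P/D and 2.54% to 3.02% of RS reads. Of 17 contigs tested, 15 were higher in RS and 2 lower. The list includes protamines, transition proteins, Odf1 and Smcp, whose mRNAs, by the study's account, are transcribed in RS and translated later. Their reads therefore do not tell elongating spermatids from RS. Of 8 leptotene and zygotene markers, of the stages before pachytene, 3 had a contig. These had 67 to 118 reads in a P/D sample and 29 to 64 in an RS sample. The 3 of their contigs tested, of Sycp2, Meioc and Hormad1, were lower in RS (median log2 fold change -1.45). Only 1 of 7 spermatogonial, 3 of 7 Sertoli and 4 of 7 Leydig cell markers had a contig, and these lists had 0 to 7 reads each in a sample. Markers without a contig were not measured here. What RNA of elongating spermatids or of earlier spermatocytes contributed to the members' values was not tested. In sorted bulk samples fewer cells of a type and less RNA per cell cannot be told apart.

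Between P/D spermatocytes and RS the tails of the members took different courses. The tails of Pgk2 and Cetn1 lengthened, those of Rpl39l shortened, and no call was made for Pdha2, Rpl10l and Rbmxl2. Of 10 member contigs 9 passed the filter, a cell type with 10 or more reads in 2 or more of its samples, and Utp14b did not. In limma's test on the mean tail of each replicate, 4 of the 9 contigs, 1 of Pgk2 and 3 of Cetn1, were longer in RS (Benjamini-Hochberg adjusted p below 0.05 over all contigs), beside 54.2% of all 6990 contigs tested. One of the 9, an Rpl39l contig, was shorter, beside 1.69% of all contigs tested, and 4 were not called. The median difference of the 9 contigs, which takes the 3 Cetn1 contigs separately, was 12.7 nt, against 37.4 nt over all contigs tested. With contigs pooled by gene, 2 of 6 member genes were longer and 1 shorter, beside 54.9% and 2.14% of 5365 genes tested. The groups' mean tails lay at a median of 115.1 nt in P/D spermatocytes, against 159.5 nt in RS over all contigs tested.

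**Figure D1:**
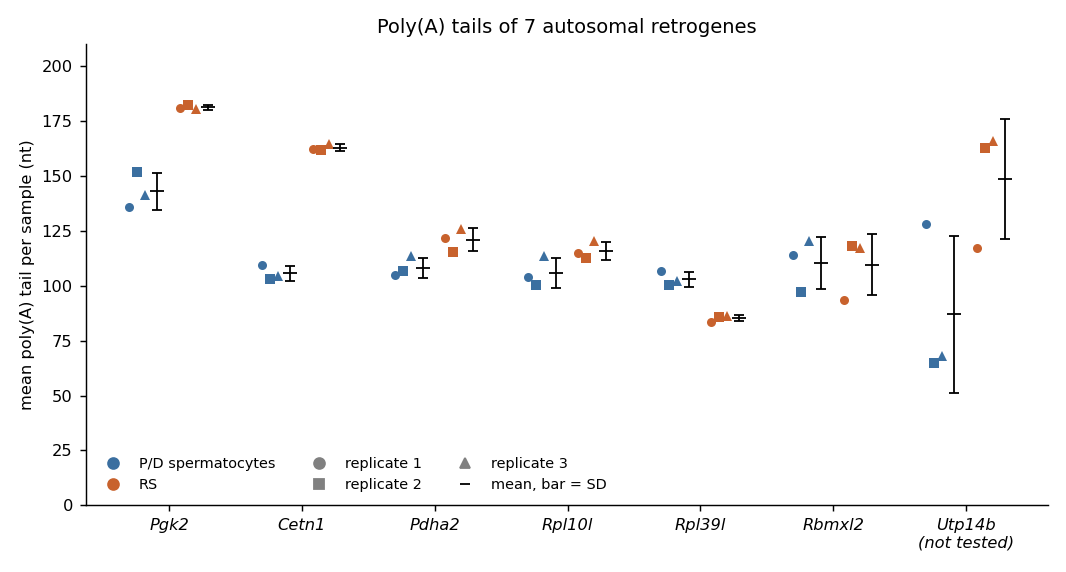
Mean poly(A) tail (nt, vertical axis) of the reads of each retrogene in each of 3 P/D spermatocyte samples and 3 RS samples, with contigs of a gene pooled and the mean and SD drawn as black bars. The RS samples of Pgk2, Cetn1 and Pdha2 lie above all of their P/D samples, those of Rpl39l lie below, and those of Rpl10l, Rbmxl2 and Utp14b overlap with P/D.

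Pgk2 encodes the germ-cell phosphoglycerate kinase, an ATP-producing enzyme of glycolysis on which sperm motility depends. Its mean tail was 135.7, 151.9 and 141.1 nt in P/D replicates 1 to 3, against 180.8, 182.1 and 180.3 nt in RS replicates 1 to 3, the order of samples kept throughout. All RS samples lay above all P/D samples, and the RS values differed by less than 2 nt. The difference was 38.2 nt (SE 6.38, adjusted p = 0.003115 from limma), with group means of 142.9 ± 8.26 and 181.1 ± 0.96 nt (SD, n = 3 each). It is close to the median difference of all contigs, and the P/D tails of Pgk2 were at the 78.7 percentile of all contigs tested and its RS tails at the 89.7 percentile. The share of Pgk2 reads with a tail of 120 to 210 nt was 52.9%, 68.0% and 56.2% in the P/D samples, against 82.7%, 84.5% and 85.9% in the RS samples. These shares rest on 104 to 125 reads in a P/D sample and on 301 to 472 in an RS sample, and the exact permutation p of 0.1 (two-sided) is the smallest that 3 samples against 3 allow. In bins of 15 nt, reads of 165 to 180 nt were the most frequent in both cell types, with 13.0% of reads in P/D spermatocytes, against 23.8% in RS. In P/D spermatocytes 12.67% (SD 7.10) lay at 135 to 150 nt and 12.23% (SD 3.33) at 150 to 165 nt, so the P/D peak was not resolved. In RS 21.65% (SD 2.70) lay at 180 to 195 nt. The 10th percentile of the tails moved from 82.7 to 149.8 nt, while the 90th percentile was 198.0 and 216.7 nt.

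Cetn1 encodes a testis centrin, a small calcium-binding protein of centrioles and of the base of the flagellum. With its 3 contigs pooled, the mean tail was 109.6, 103.0 and 104.5 nt in the P/D samples, against 162.2, 161.6 and 164.4 nt in the RS samples. The groups stood far apart, with 105.7 ± 3.44 and 162.8 ± 1.48 nt (SD, n = 3 each) and a difference of 57.1 nt (SE 4.76, adjusted p = 0.0002636 from limma over all genes). With contigs pooled in this way, 54.9% of 5365 genes tested were called longer in RS, 2.14% shorter. The P/D samples of the 3 contigs lay between 101.8 and 113.7 nt and their RS samples between 159.5 and 167.8 nt, and each was called longer. Since 2 of the 3 have the same sequence, their likeness to each other carries no information. The share of Cetn1 reads with 120 to 210 nt was 35.2%, 30.6% and 29.9% in P/D spermatocytes, against 82.8%, 82.6% and 84.8% in RS (exact permutation p = 0.1). The most frequent bin moved from 60 to 75 nt, with 12.9% of reads, to 165 to 180 nt, with 20.9%. Other bins were close, with 11.81% (SD 3.40) at 90 to 105 nt in P/D spermatocytes and 20.07% (SD 1.29) at 150 to 165 nt in RS. Neither peak was therefore resolved to 1 bin. The 90th percentile of the P/D tails was 175.6 nt and the 10th percentile of the RS tails 119.8 nt.

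Rpl39l encodes the germ-cell form of a small protein at the exit tunnel of the large ribosomal subunit. The contig with most of its reads, ENSMUST00000044103, had mean tails of 107.0, 100.8 and 101.7 nt in the P/D samples, against 83.8, 85.6 and 86.7 nt in the RS samples. All RS samples lay below all P/D samples, and the difference was -17.8 nt (SE 5.34, adjusted p = 0.0298 from limma). The shortening was past the threshold with narrow margin: the adjusted p was 0.0630 with the median in place of the mean, 0.0553 without P/D replicate 1, and 0.0906, 0.0700 and 0.0618 without RS replicate 1, 2 and 3, while the difference stayed between -15.9 and -18.5 nt. With the replicate number as a block it was 0.0921. With both contigs pooled the difference was -17.7 nt (SE 4.75, adjusted p = 0.01951). The second contig, ENSMUST00000121292, had 15 to 27 reads per sample and mean tails of 101.6, 91.0 and 107.4 nt in P/D spermatocytes, against 81.4, 89.5 and 79.2 nt in RS, which do not overlap but were not called (adjusted p = 0.0831 from limma). The RS means lay below all P/D means for 2.72% of 6464 contigs with a tail in every sample.

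The distribution of the Rpl39l tails became narrower as well as shorter. The share of its pooled reads with 120 to 210 nt was 33.1%, 32.9% and 30.03% in the P/D samples, against 13.1%, 13.3% and 16.5% in the RS samples, with no overlap (exact permutation p = 0.1). Over the 6464 contigs with a tail in every sample, 61.7% had all RS shares above P/D and 3.17% below. The most frequent bin was 45 to 60 nt, with 12.1% of reads, in P/D spermatocytes, and 60 to 75 nt, with 21.9%, in RS. The P/D peak was not resolved from the bin of 30 to 45 nt, with 11.82% (SD 1.87). The 10th percentile was 35.7 nt in P/D spermatocytes, against 47.5 nt in RS, and the 90th percentile was 182.5 and 135.2 nt, so that both the shortest and the longest tails were less frequent in RS. In RS the main contig stood at the 0.83 percentile of all contigs tested, in P/D spermatocytes at the 31.2 percentile.

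**Figure D2:**
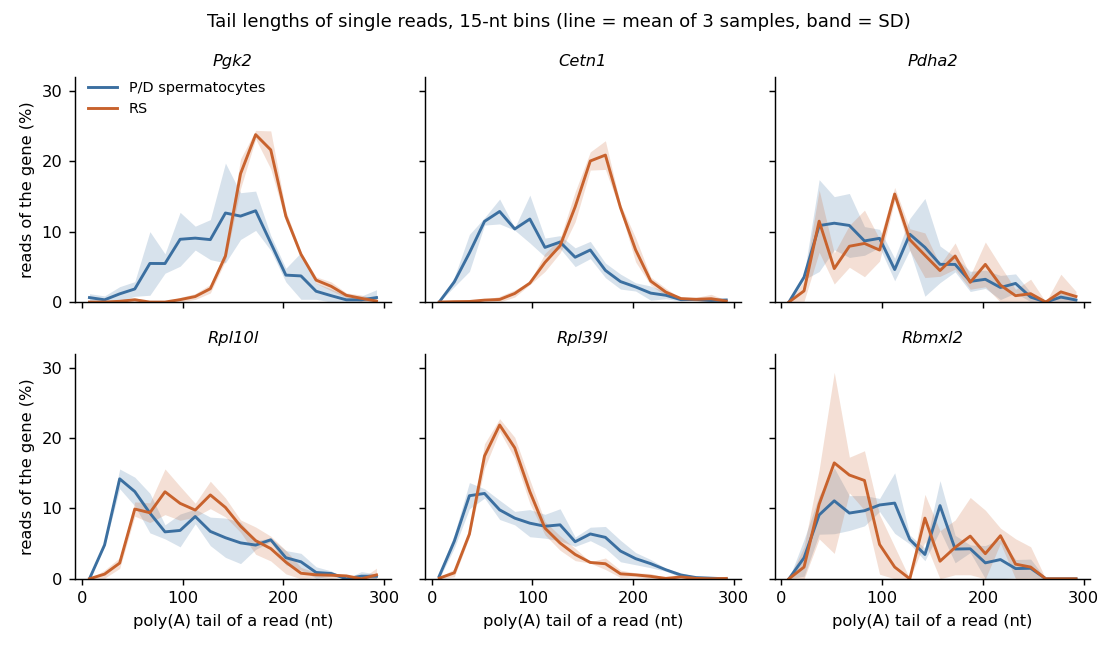
Share of the reads of a gene (%, vertical axis) by poly(A) tail length in bins of 15 nt (horizontal axis) for 6 retrogenes, up to 300 nt, where the line is the mean of 3 samples and the band its SD. The RS reads of Pgk2 and Cetn1 peak at 165 to 180 nt, those of Rpl39l peak at 60 to 75 nt, and Pdha2, Rpl10l and Rbmxl2 are spread over both ranges in both cell types.

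Rpl10l encodes the germ-cell form of a protein of the large ribosomal subunit needed for a late step of subunit assembly. Its mean tail was 103.9, 100.3 and 113.5 nt in the P/D samples, against 114.7, 112.6 and 120.5 nt in the RS samples, and the groups overlapped by less than 1 nt. The difference of 10.05 nt (SE 6.29) was not called (adjusted p = 0.223 from limma). It passed the threshold when samples were weighted by reads, at an adjusted p of 0.0192, and among contigs with at least 50 reads in every sample, at 0.0354, where 91.2% of 773 contigs were called longer. The share of reads with 120 to 210 nt was 31.6%, 26.7% and 34.8% in P/D spermatocytes, against 43.3%, 39.4% and 42.3% in RS, without overlap (exact permutation p = 0.1). The most frequent bin was 30 to 45 nt in P/D spermatocytes, against 75 to 90 nt in RS. In RS 12.4% of reads (SD 3.25) lay at 75 to 90 nt and 11.9% (SD 1.95) at 120 to 135 nt. In P/D spermatocytes 14.2% (SD 1.40) lay at 30 to 45 nt and 12.4% (SD 2.05) at 45 to 60 nt. Neither peak was therefore resolved. The 90th percentile was 192.3 nt in P/D spermatocytes, against 178.0 nt in RS.

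The other genes of cytosolic ribosomal proteins gave a measure of what the tails of this family did in the same samples, a comparison chosen after the values had been seen. Of 143 contigs of 82 other ribosomal protein genes tested, 133 were longer in RS by limma's adjusted p and 0 were shorter, also by the unadjusted p, with a median difference of 52.1 nt and 10th and 90th percentiles of 26.5 and 75.2 nt. The median tail of the 142 of them with reads in every sample was 84.5, 84.8 and 83.7 nt in the P/D samples, against 139.3, 140.1 and 142.3 nt in the RS samples. Rpl10l lay above that median by 21.6 ± 7.47 nt in P/D spermatocytes, and its offset in RS was -24.6 ± 2.87 nt (SD, n = 3 each), a change of -46.2 nt (exact permutation p = 0.1). The main Rpl39l contig lay above it by 18.9 ± 3.33 nt in P/D spermatocytes with an RS offset of -55.2 ± 0.58 nt, a change of -74.1 nt (exact permutation p = 0.1). Both retrogenes thus changed sides, from above the family's median in every P/D sample to below it in every RS sample. Among the 143 contigs, 2 had a lower difference than Rpl10l, a contig of Rpl10a (-6.12 nt, SE 27.9) and that of Rps4l, and the latter alone had a lower difference than Rpl39l. Rps4l is itself an autosomal copy of an X-linked ribosomal gene, Rps4x, and had a difference of -18.5 nt that was not called (SE 9.10, adjusted p = 0.134 from limma). Both were named after their values were seen. Rpl41, Rplp0 and Rpl13, the 3 genes of the list with the most reads, lengthened by 58.5 to 68.5 nt over their tested contigs.

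**Figure D3:**
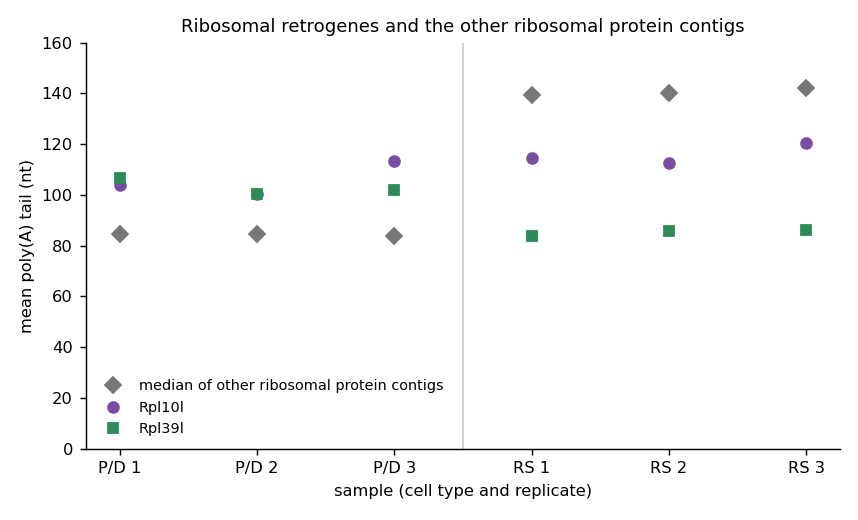
Mean poly(A) tail (nt, vertical axis) of Rpl10l and Rpl39l, contigs pooled, and the median of the mean tails of the other ribosomal protein contigs, in each of the 6 samples (horizontal axis). Both retrogenes lie above the family's median of 83.7 to 84.8 nt in the P/D samples and below its 139.3 to 142.3 nt in the RS samples.

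Pdha2 encodes the testis form of the E1 alpha subunit of pyruvate dehydrogenase, which links glycolysis to mitochondrial respiration. Its mean tail was 104.7, 106.5 and 113.4 nt in the P/D samples, against 121.8, 115.2 and 125.7 nt in the RS samples. The groups did not overlap, as for 63.6% of 6464 contigs with a tail in every sample whose RS samples all lay above P/D, but the difference of 12.7 nt (SE 6.02) was not called (adjusted p = 0.122 from limma). It was called with weights by reads, at an adjusted p of 0.0433, and among contigs with at least 50 reads in every sample, at 0.0085. The share of reads with 120 to 210 nt was 36.8%, 33.9% and 32.3% in P/D spermatocytes, against 33.9%, 35.5% and 34.8% in RS, which overlap.

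Among the 6 tested contigs of other pyruvate dehydrogenase genes, 4 were longer in RS, with a median difference of 24.9 nt. Pdhb, the E1 beta subunit that pairs with the alpha subunit, had mean tails of 125.6 ± 6.51 and 148.1 ± 13.5 nt (SD, n = 3 each; adjusted p = 0.0671 from limma). Pdk2, a kinase that inactivates the complex, lengthened by 46.6 nt (SE 6.11, adjusted p = 0.001212 from limma). For glycolysis, the pathway of Pgk2, 20 of 28 contigs tested were longer, with a median difference of 50.1 nt.

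Rbmxl2 encodes an RNA-binding protein of the hnRNP G family that controls splicing in meiosis. Its mean tail was 113.8, 97.1 and 120.3 nt in the P/D samples, against 93.5, 117.9 and 117.3 nt in the RS samples. These ranges overlap almost wholly, and the difference was -0.84 nt (SE 9.96, adjusted p = 0.95 from limma). The sign turned when P/D replicate 1 or 3 or RS replicate 1 was left out, with differences of 0.88, 4.09 and 7.20 nt, or when samples were weighted by reads, with 2.64 nt. Only 16, 40 and 28 reads stood behind the RS values, and the share of RS reads with 120 to 210 nt, at 12.5%, 27.5% and 35.7%, had Wilson intervals (95%) as wide as 3.50% to 36.0% in replicate 1. Such intervals cover counting error only.

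Utp14b encodes a protein of the small subunit processome, which processes ribosomal RNA, and its loss is known to stop the male germ line early. Its reads numbered 5, 2 and 3 in the P/D samples, against 9, 15 and 2 in the RS samples, too few for either test. Its contig spans 78658038 to 78671512 of chromosome 1 within the gene Acsl3 on the same strand, whose contig had 17 to 31 reads per sample. The mean tails of these few Utp14b reads were 128.3, 64.6 and 68.2 nt in P/D spermatocytes, against 117.0, 162.7 and 165.8 nt in RS, with overlap between the groups.

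Ordered by mean tail, the members were hard to tell apart in P/D spermatocytes, and in RS they spread out. In P/D spermatocytes Utp14b (87.0 nt, from 10 reads), Rpl39l (103.0 nt), Cetn1 (105.7 nt), Rpl10l (105.9 nt), Pdha2 (108.2 nt) and Rbmxl2 (110.4 nt) followed each other with overlapping samples. Pgk2, at 142.9 nt, lay above Rbmxl2 without overlap. In RS the order was Rpl39l (85.3 nt), Rbmxl2 (109.6 nt), Rpl10l (115.9 nt), Pdha2 (120.9 nt), Utp14b (148.5 nt), Cetn1 (162.8 nt) and Pgk2 (181.1 nt). Rpl39l was apart from Rbmxl2 and Pgk2 apart from Cetn1, while the neighbours between them overlapped. Between Pdha2 and Cetn1 this overlap runs through Utp14b, which had 26 RS reads. The RS samples of Pdha2 (115.2 to 125.7 nt) and Cetn1 (161.6 to 164.4 nt) did not overlap.

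Accumulation is given in CPM, the reads of a gene scaled to the depth of the sample, and was tested on the counts with edgeR's quasi-likelihood test. Pgk2 accumulated in RS, Pdha2, Rbmxl2 and Cetn1 decreased, and no call was made for Rpl10l and Rpl39l. Of the 9 contigs tested, 1 was higher in RS, beside 32.6% of all 6005 contigs tested, and 4 contigs of 3 genes were lower, beside 30.8%. With contigs summed by gene, 1 of 6 member genes was higher and 3 were lower, beside 33.9% and 32.5% of 4934 genes tested. The median log2 fold change of the 9 contigs was -0.29, against -0.029 over all contigs tested. The 10 contigs together took 0.467% to 0.483% of the reads of a P/D sample and 0.435% to 0.447% of those of an RS sample.

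**Figure D4:**
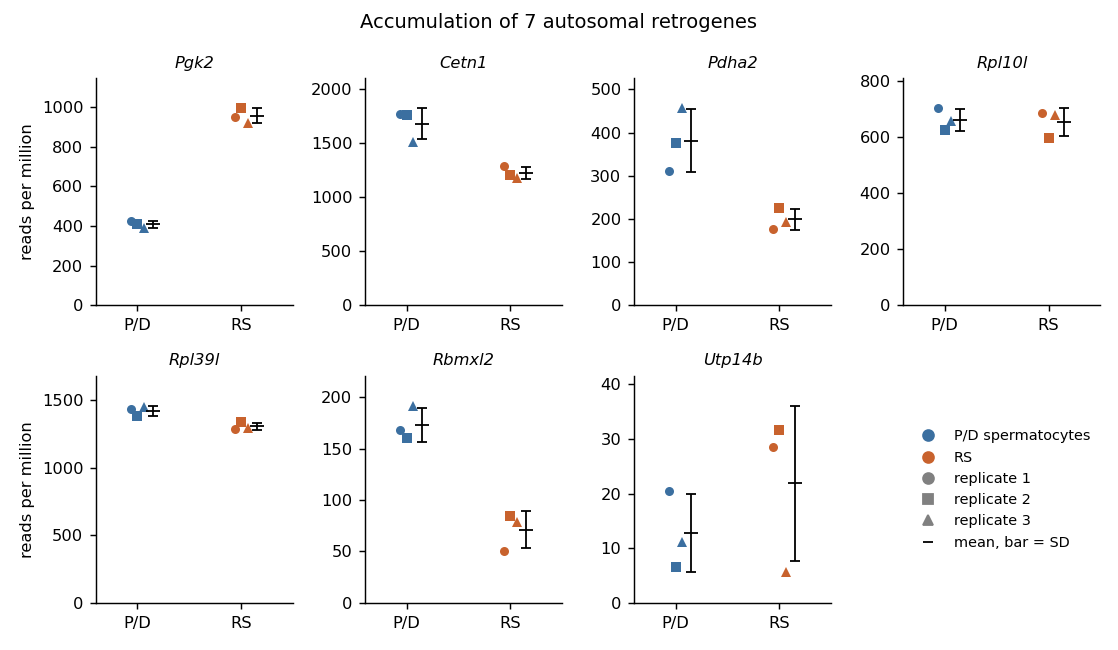
CPM of each retrogene (vertical axes, which start at 0 and differ between panels) in the 3 P/D and 3 RS samples, contigs of a gene summed, with mean and SD. The RS samples of Pgk2 all lie above the P/D samples, those of Cetn1, Pdha2, Rpl39l and Rbmxl2 below, and those of Rpl10l and Utp14b overlap.

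Pgk2 had 426.2, 408.6 and 387.0 CPM in the P/D samples, against 950.6, 994.3 and 918.5 in the RS samples. The lowest RS sample was far above the highest P/D sample, and accumulation rose 2.42-fold (log2 fold change 1.27, SE 0.12, adjusted p = 2.65e-12 from edgeR). Among 27 glycolysis contigs tested, 14 were higher in RS and 5 lower (median log2 fold change 0.61).

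Pdha2 had 311.5, 375.9 and 457.0 CPM in P/D spermatocytes, against 176.8, 225.4 and 193.8 in RS. All RS samples lay below all P/D samples, and the log2 fold change was -0.89 (SE 0.16, adjusted p = 9.92e-06 from edgeR). Pdhb decreased too, with a log2 fold change of -1.07 (SE 0.20, adjusted p = 1.23e-05 from edgeR). Of the 6 contigs of other genes of the complex, 2 were lower and 2 higher in RS. Pdk2 and Pdk3, kinases that inactivate it, were those that rose, with log2 fold changes of 0.54 and 2.78. Pdk3 was named after its values were seen and lies on the X chromosome. Of 224 X-linked contigs, 72 had enough reads to be tested for counts, and all 72 were higher in RS (median log2 fold change 3.37). The 224 shared only 238 to 464 reads in a P/D sample, so few could pass the read filter through P/D samples. Their uniform direction is therefore partly set by the filter.

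Rbmxl2 had 168.0, 160.2 and 191.7 CPM in P/D spermatocytes, against 50.5, 84.3 and 78.7 in RS, a 2.30-fold decrease without overlap (log2 fold change -1.20, SE 0.23, adjusted p = 1.31e-05 from edgeR). All 5 contigs tested of the genes Tra2a, Tra2b, Khdrbs1 and Khdrbs3, splicing regulators of related function, were also lower in RS (median log2 fold change -1.42). Their tails were longer in RS for 2 of the 5, a Tra2a contig (46.5 nt) and a Khdrbs3 contig (46.4 nt).

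Cetn1, with its contigs summed, had 1770, 1762 and 1515 CPM in P/D spermatocytes, against 1288, 1211 and 1180 in RS. The groups did not overlap, and the decrease was 1.31-fold (log2 fold change -0.39, SE 0.096, adjusted p = 0.0003054 from edgeR over all genes, of which 33.9% were called higher and 32.5% lower). The contig ENSMUST00000234003, whose sequence differs from that of the other 2, was called lower by edgeR (adjusted p = 0.004903) and not by DESeq2 (adjusted p = 0.0624). Of the related genes, Cetn3 had a tail difference of -1.88 nt (SE 6.03, adjusted p = 0.813 from limma) and 3 of 4 Cetn4 contigs lengthened. Of 5 contigs of Cetn3, Cetn4 and the centrin-binding Poc5 tested for counts, that of Poc5 alone was lower in RS.

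Rpl10l had 700.8, 624.3 and 656.0 CPM in P/D spermatocytes, against 685.3, 594.1 and 676.9 in RS, which overlap (log2 fold change 0.022, SE 0.12, adjusted p = 0.883 from edgeR). The sign depended on the filter: it was -0.028 with no filter on low counts. Rpl39l had 1434, 1379 and 1448 CPM in P/D spermatocytes, against 1282, 1334 and 1295 in RS. These do not overlap, as for 34.2% of 6005 contigs with all RS samples below P/D, but after normalization the log2 fold change was -0.058 (SE 0.096, adjusted p = 0.606 from edgeR over all genes). Of the other ribosomal protein contigs 90 of 131 tested were lower in RS and 3 higher (median log2 fold change -0.65).

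The tails and the accumulation of the members gave several combinations. Pgk2 was longer and higher, Cetn1 longer and lower, Rpl39l shorter with no call on accumulation, Pdha2 and Rbmxl2 lower with no call on the tail, and Rpl10l had neither call.

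**Figure D5:**
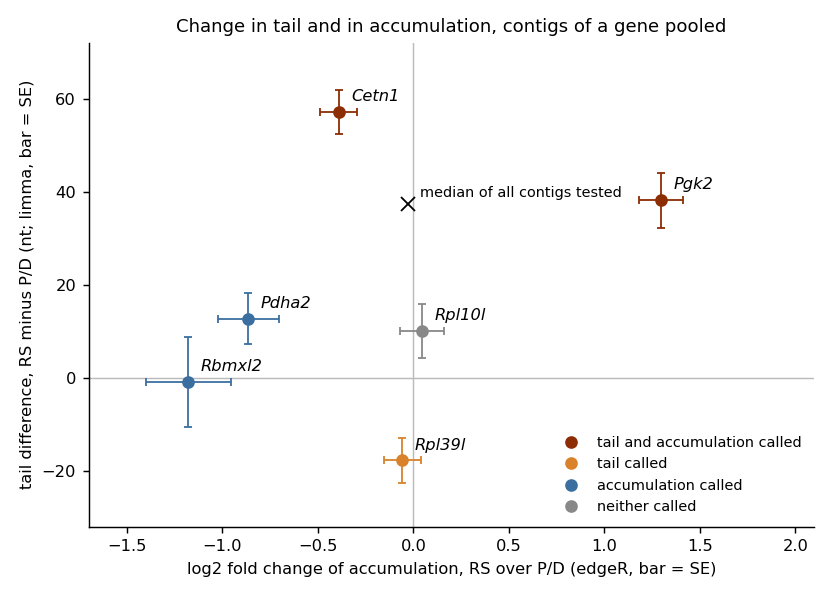
Tail difference between RS and P/D spermatocytes (nt, vertical axis) against the log2 fold change of accumulation (horizontal axis) for the 6 tested retrogenes, contigs pooled, with SE bars and the calls in colour. The cross marks the medians of all contigs tested, 37.4 nt and -0.029: Cetn1 lies above it, Pgk2 is level with it, and the other 4 lie below.

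The 3 X-linked parents analysed, Rpl10, Cetn2 and Rpl39, had 0 to 2 reads in each sample. The reads of Rpl10 numbered 0, 0 and 0 in the P/D samples, against 2, 1 and 1 in RS. Those of Cetn2 numbered 0, 0 and 0, against 1, 2 and 2, and those of Rpl39 0, 0 and 1, against 0, 1 and 0. The parents of the other 4 members, Pgk1, Pdha1, Rbmx and Utp14a, had no contig among the annotated contigs. They could not be analysed, and nothing is said of their levels. Each parent was represented by 1 contig, and reads of its other transcripts would not be counted. Against a floor of 3 counts over the group, the 540 P/D reads of Rpl10l were at least 180-fold higher than those of the Rpl10 contig. The 1382 of Cetn1 were at least 461-fold higher than those of the Cetn2 contig. These folds are bounds for the contigs and not for the whole parent genes. The log2 ratio of copy to parent, with a prior count of 0.5 reads added to each, did not overlap between the cell types for 2 of 3 pairs, those of Rpl10l and Cetn1 (exact permutation p = 0.1 each), and with a prior count of 2 for 1, that of Cetn1. Since both parents had 0 reads in P/D spermatocytes, the size of that change is set by the prior count and is not given. The lack of overlap itself rests largely on 1 or 2 parent reads in each RS sample. It is not read as a result about the copies, and no share over other contigs was computed for such ratios. The X-linked contigs as a whole, 224 of 199 genes, had 238 to 464 reads in a P/D sample and 3537 to 5696 in an RS sample.

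Other autosomal copies of X-linked genes, Cstf2t, Gk2, Gykl1, Naa11, Ubl4b, Rpl36al, Rps4l and Mcts2, were set beside the members. Of 9 contigs tested for tails 7 were longer in RS, with a median of 47.4 nt, and of 7 tested for counts 4 were higher and 1 lower. Gk2 and Gykl1, copies of the glycerol kinase gene, lengthened by 54.5 nt (SE 5.60) and 56.3 nt (SE 5.45). The main contig of Rpl36al, also a ribosomal protein, lengthened from 76.8 ± 5.92 to 114.0 ± 3.46 nt (SD, n = 3 each; adjusted p = 0.002685 from limma). Rps4l, whose uncalled difference stands with the ribosomal retrogenes above, had tails of 98.6 ± 15.8 and 80.1 ± 3.80 nt.

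The contigs whose mean tails were most like those of a member over the 6 samples were found by the root mean square difference, among 1824 to 1826 contigs of other genes with at least 20 reads in every sample. For the 3 Cetn1 contigs these included Insl6 (1.55 nt), Ldhc (1.73 nt), Ppp3r2 (1.55 nt), Ppm1g (2.25 nt), Usp1 (3.05 nt) and H1fx (3.13 nt). Pgk2 was closest to Phkg2 (4.67 nt) and 1700017D01Rik (4.75 nt), with RS means of 183.3 nt each. Pdha2 was closest to Cox7c (2.85 nt) and Taf9 (3.38 nt), and Rpl10l to Pdha2 itself (4.51 nt) and Nsmce1 (4.91 nt). The main Rpl39l contig had no contig within 5 nt, the nearest being Hagh (5.39 nt), with means of 100.2 and 87.4 nt, and Mt2 (5.96 nt), with 103.5 and 81.1 nt. Most of the likeness lies in the distance between the cell types, which the samples share.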

How the data were processed

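Native RNA reads of 3 P/D and 3 RS samples were basecalled, demultiplexed and aligned to GENCODE transcripts of GRCm38 with minimap2 (2.20-r1061 in the submitters' processing notes) by the authors, and tails were estimated with Nanopolish. The authors deposited raw counts of reads per contig, not normalized, and a table whose signal is, per read, the length of its tail in nt. The counts equalled the rows of the tail table. Structure and sequences came from GENCODE vM21, of the same build, which held 11344 of 11517 annotated contigs. The 597 repeat contigs were not tested.

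Mean tails per contig and replicate were tested with limma 3.58.1 (lmFit, eBayes), where 2 or more samples of a cell type had 10 or more reads of the contig and 2 of each had a mean. The test on counts was that of edgeR 4.0.16 (TMM, filterByExpr, glmQLFTest) in R 4.3.3, where the SE is the log2 fold change over the square root of F. Adjusted p-values are Benjamini-Hochberg values over all contigs or, where stated, all genes, with a threshold of 0.05. "Over all genes" means that contigs of a gene were pooled or summed. Tail classes include the lower bound. Single values were compared by two-sided exact permutation tests in Python 3.11.15 with scipy 1.17.1, numpy 2.4.6 and pandas 2.3.3, and figures were drawn with matplotlib 3.10.9. DESeq2 1.42.0 was an alternative. Alternatives covered the summary, scale, weights, read minimum, normalization, filter, tail bounds, prior count, replicate block and each replicate left out. The study's own t-test on replicate means, unadjusted and adjusted, was another.

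All members, their parents, the 3 genes of another list with the most reads (if a contig was tested) and the 2 most similar contigs could be named. A few genes of short lists and of marker lists are named beyond this. The members and lists were chosen with earlier results of these data known. Same-numbered samples deviated from their group means with correlations of 0.03, 0.24 and 0.07 for accumulation and -0.01, 0.08 and 0.02 for tails, and no source used here states that pools of the same number hold the same mice, although both cell types were isolated from each mouse. The fit is therefore unpaired, and the paired fit is an alternative. Pools of mice are separate samples of a cell type, and p-values measure the spread between pools within 1 library per cell type. Depth was 244004 to 474688 reads per sample, and a contig at the minimum rests on 10 reads.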

Additional observations from a re-analysis of the deposited data

How the results depend on the processing

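The calls on Pgk2 and on Cetn1 tails, and the decreases of Pdha2 and Rbmxl2, kept their direction and their side of the threshold under every alternative run. The number of genes called shorter, 1 in the report, was 0 with the median tail and with the replicate block, and ranged from 0 to 1 when 1 replicate was left out. The number called longer, 2, was 4 with weights by reads and with at least 50 reads in every sample, where Pdha2 and Rpl10l were added, beside 57.1% and 91.2% of all contigs called longer under these settings. Under the replicate block the Cetn1 contig ENSMUST00000062769 was called lower as well (adjusted p = 0.0444 from edgeR) and the Rpl39l contig ENSMUST00000044103 lost its call (0.0921 from limma). It changed no other call on a member, and it moved the contigs called longer among all tested from 3787 to 3577. The Cetn1 contig ENSMUST00000234003 lost its call on counts with at least 10 counts in every sample (adjusted p = 0.142 from edgeR).

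With 120 to 180 nt as the class, 2 genes in place of 4 had every RS sample above P/D. Those 4 of 7, beside 61.7% of all contigs, include Utp14b, with 2 to 15 reads per sample, and were 4 to 5 when 1 replicate was left out. Without RS replicate 3 the genes with every RS sample below were 2 in place of 1, against 1 without any other replicate. With a prior count of 2, 1 in place of 2 pairs of copy and parent did not overlap. Signs turned for uncalled values: the Rbmxl2 tail difference was 2.64 nt with weights, and between -7.50 and 7.20 nt when 1 replicate was left out. The log2 fold change of Rpl10l was -0.028 with no filter and -0.021 without P/D replicate 2, and that of the main Rpl39l contig was 0.13 with at least 10 counts in every sample. DESeq2, run on all 11517 contigs, called 2563 higher and 1430 lower, against 1955 and 1848 of 6005 by edgeR, with a median log2 fold change of 0.25 against -0.029. Among the 9 member contigs, its calls differed from those of edgeR in the Cetn1 contig ENSMUST00000234003 alone. The offsets of the ribosomal retrogenes changed by -41.6 to -49.3 nt for Rpl10l and by -69.5 to -75.5 nt for the main Rpl39l contig over 8 alternatives chosen after seeing the data. The cause of these dependences was not tested. Utp14b, with 2 to 15 reads per sample, was too shallow for either test.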
